A study of Mus musculus with 6 samples.

Results

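A set of 6 mouse liver genes whose array values differed widely between single livers are described here: Rgs16, Lpin2, Gpcpd1, Csad, Ip6k2 and Tubb2a, 6 of the 19505 genes measured. Each was read by 1 row of the array table. They were chosen from these same values for their spread between livers, so that spread and the differences between liver numbers are given as a description, with no test. Over the 6 livers their standard deviations (SD) ranged from 1.29 log2 for Tubb2a, rank 104 of all genes, to 2.91 for Rgs16, rank 7, whereas the median gene had 0.20. The tissue was total liver RNA from 6 male mice on a C57BL/6 background, all aged 8 weeks, namely 3 with Hmgb2 knocked out (HMGB2-KO) and 3 wild type (WT). Each liver has 1 column of values from the Clariom S array, a single-colour array with several short probes per gene. Titles number the livers 1 to 3 in each genotype, and the descriptions give animals 39, 41 and 32 for HMGB2-KO livers 1 to 3 and animals 38, 40 and 31 for WT livers 1 to 3. The labels name no treatment, no Cre driver, and no litter, day or feeding state, and nothing states whether the knockout is in every cell type.

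These genes have different known functions, given here as background. Rgs16 is a GTPase-activating protein that shortens signalling by Gi and Gq proteins, and in mouse liver it is known as a gene of periportal hepatocytes that changes with feeding time. Lpin2 is a phosphatidate phosphatase, which makes the diacylglycerol used for triglyceride and phospholipid synthesis. Gpcpd1 splits glycerophosphocholine into choline and glycerol phosphate. Csad makes hypotaurine from cysteine sulfinic acid on the way to taurine, with which mouse liver conjugates bile acids. Ip6k2 adds a pyrophosphate to inositol hexakisphosphate, and Tubb2a is a beta-tubulin of microtubules.

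All values are log2 differences from a baseline that each row has of its own and that is not stated, with the median of every array set to 0. Differences between livers can therefore be read, but no level of 1 gene can be set against that of another, and whether markers of a cell type are present or absent cannot be checked. In bulk tissue, fewer cells of a type and less RNA per cell cannot be told apart. Hmgb2 itself was at -0.66, -0.33 and -0.43 in HMGB2-KO livers 1 to 3, against 0.47, 0.36 and 0.42 in WT livers 1 to 3, so every liver lay on the side of its label. WT replicate 2 stood apart as deposited, with a median over all rows of 0.26 against -0.05 to 0.01 on the other arrays. On it 202 genes lay more than 1 log2 below every other array, against 38 to 53 on each of the others. Medians of 12 hepatocyte markers ranged from 0.02 to 0.04 in HMGB2-KO livers and from -0.21 to 0.05 in WT livers, the lowest being WT replicate 2. Between the highest and the lowest liver the median differed by 0.34 for Kupffer cell markers, 0.28 for bile duct markers and 0.18 to 0.25 for those of endothelial, stellate and blood cells. A median over several markers and the range of a single gene chosen for its spread are unlike measures, so they were not compared. The Kupffer cell median was 0.53, 0.41 and 0.60 in HMGB2-KO livers 1 to 3, against 0.26, 0.27 and 0.40 in WT livers 1 to 3, without overlap here but with overlap in the values as deposited and after quantile normalization, a check chosen after seeing the data. All 11 measured Kupffer cell markers had a higher mean in HMGB2-KO (median log2 fold change 0.20), against 9 of 11 in the values as deposited. None of them passed an adjusted or unadjusted threshold of 0.05 in limma. The median of the 3 measured erythroid markers did not overlap either and was lower in HMGB2-KO. It was 0.01, -0.04 and 0.04 in HMGB2-KO livers 1 to 3, against 0.17, 0.22 and 0.07 in WT livers 1 to 3. The part of these markers in the values of the 6 genes was not tested.

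**Figure D1:**
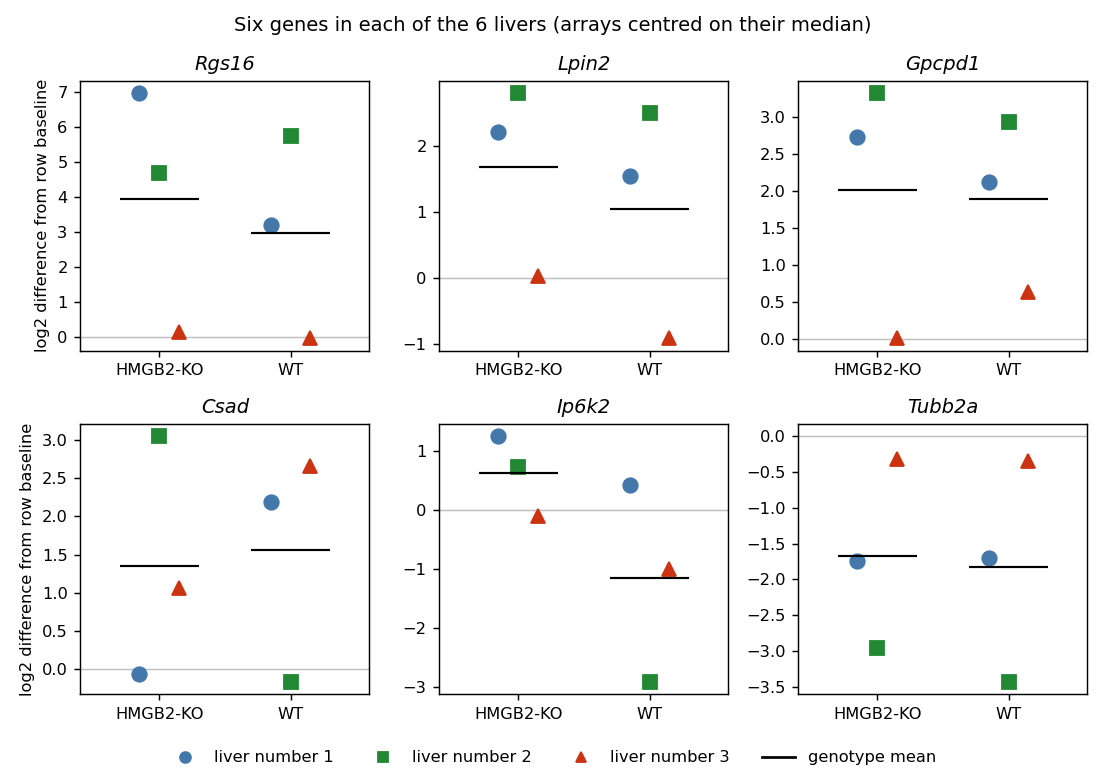
Values of each gene in every liver (y axis, log2 difference from the row baseline), HMGB2-KO left and WT right, with the symbol giving the liver number and the line the genotype mean. Livers numbered 3 lie below all others for Rgs16, Lpin2 and Gpcpd1 and above all others for Tubb2a, while Csad and Ip6k2 do not follow the liver number.

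Promoter sequences are shown for the genes that followed the liver number and have an entry in the RefSeq table used (build GRCm38.p6), because genes that move together may be compared for short known motifs. Each is the stretch of 250 bases before the transcript start, written 5′ to 3′ on the gene's strand, with any of the searched motifs in capitals. Where a gene has several starts the one farthest upstream is printed. Rgs16 lies at chr1:153740103-153740352 on the plus strand, Lpin2 at chr17:71183282-71183531 on the plus strand and Tubb2a at chr13:34078009-34078258 on the minus strand.
Rgs16: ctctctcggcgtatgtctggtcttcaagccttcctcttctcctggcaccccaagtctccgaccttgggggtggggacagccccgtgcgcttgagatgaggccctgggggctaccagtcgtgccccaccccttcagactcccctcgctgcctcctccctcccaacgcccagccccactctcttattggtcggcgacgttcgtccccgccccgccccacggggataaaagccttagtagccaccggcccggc
Lpin2: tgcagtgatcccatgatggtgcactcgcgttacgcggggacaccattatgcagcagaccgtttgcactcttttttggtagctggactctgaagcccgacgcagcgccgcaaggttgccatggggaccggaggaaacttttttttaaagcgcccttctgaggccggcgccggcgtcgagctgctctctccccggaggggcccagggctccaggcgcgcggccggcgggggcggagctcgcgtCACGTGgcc
Tubb2a: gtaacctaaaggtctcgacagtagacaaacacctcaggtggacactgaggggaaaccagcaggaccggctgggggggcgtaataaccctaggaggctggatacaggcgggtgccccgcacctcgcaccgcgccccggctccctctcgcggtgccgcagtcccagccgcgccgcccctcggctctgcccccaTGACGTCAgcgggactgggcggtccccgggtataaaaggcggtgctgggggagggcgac
The motifs searched on both strands were CACGTG (E-box of CLOCK and BMAL1), TTANGTAA (D-box of DBP), AGGTCA (half-site of REV-ERB and ROR), TGACGTCA (cAMP response element) and GTAAACA (forkhead site). The E-box stood at bases -9 to -4 of the upstream Lpin2 start, and 6.02% of all 32851 promoter windows of this length hold one. The cAMP response element stood at bases -59 to -52 of Tubb2a, a motif held by 1.55% of windows. A forkhead site was found at bases -138 to -132 of the third Lpin2 start (3.17% of windows). The D-box (2.06% of windows) and the half-site (14.02%) had no match in the 9 windows of the 5 genes with an entry. Rgs16, Csad and Ip6k2 held no match for any of the 5 motifs in these windows. A match is a stretch of letters and does not show binding.

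Rgs16 had the widest range of the genes described. It was at 6.97, 4.69 and 0.14 in HMGB2-KO livers 1 to 3, against 3.19, 5.75 and -0.05 in WT livers 1 to 3. Both livers numbered 3 were the lowest and the other 4 lay at least 3 log2 units above them. The mean was 0.05 in livers numbered 3 and 5.15 in livers numbered 1 and 2, a difference of -5.10 or 34.4-fold lower, if the values are log2. This was the largest difference in size between liver numbers among all genes. It was present in each genotype, at -5.69 among HMGB2-KO livers and -4.52 among WT livers. The same-number difference of HMGB2-KO minus WT was 3.78 for livers numbered 1, -1.06 for livers numbered 2 and 0.18 for livers numbered 3. Livers that share a number are different animals and were not taken as pairs, so such differences only describe the values.

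The genes most like Rgs16 in pattern over the 6 livers were sought among 812 genes with an SD of at least 0.5. These were the zinc-binding metallothioneins Mt1 (Pearson r = 0.99) and Mt2 (0.98), Tcp11l2 (0.99), the autophagy kinase Ulk1 (0.98) and Spata2l (0.97). Such a correlation over 6 livers describes shape and is set largely by the step between livers numbered 3 and the rest, which these genes share. Mt1 also followed the order of the other livers, with -0.05, -1.21 and -5.20 in HMGB2-KO livers 1 to 3, against -2.49, -0.17 and -5.07 in WT livers 1 to 3. HMGB2-KO liver 1 and WT liver 2 were the 2 highest for both genes.

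Other RGS genes necessarily differed less than Rgs16 between liver numbers, since its difference was the largest among all genes. Of 20 measured, 8 were higher and 12 lower in livers numbered 3, with a median difference of -0.03, against -0.00 over all genes. None passed the adjusted threshold of 0.05 between liver numbers, where 0.041% of all genes did (limma with genotype as a further term), and for 3 the groups of livers did not overlap, all lower, where 9.32% of all genes do so. The differences largest in size were those of Rgs22 (-1.03, SE 0.22), Rgs14 (-0.52, SE 0.20) and Rgs13 (-0.27, SE 0.20). Rgs2, Rgs4 and Rgs8, looked up after other values were seen, were at 0.01, -0.23 and -0.15.

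Lpin2 read 2.22, 2.80 and 0.03 in HMGB2-KO livers 1 to 3, against 1.55, 2.51 and -0.92 in WT livers 1 to 3. Again both livers numbered 3 were the lowest. Their mean was -0.44, against 2.27 in livers numbered 1 and 2, which is 2.71 log2 units or 6.55-fold lower. Within HMGB2-KO the difference was -2.48 and within WT -2.95. HMGB2-KO was higher than WT at each number, by 0.67, 0.29 and 0.95 for livers numbered 1, 2 and 3.

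Its paralog Lpin1, which encodes the phosphatidate phosphatase best known as a partner of PPARalpha and PGC-1alpha in fasted mouse liver, was the gene most like it (r = 0.99). Lpin1 stood at 4.16, 5.39 and 1.33 in HMGB2-KO livers 1 to 3, against 3.74, 5.16 and -0.68 in WT livers 1 to 3, and the livers lay in the same order as for Lpin2. For Lpin1 the difference of livers numbered 3 from 1 and 2 was -4.29 (SE 0.56), with an adjusted p of 0.0866 in limma, which misses the threshold. The third lipin, Lpin3, looked up after other values were seen, differed by 0.01. Klf15, a fasting-responsive transcription factor (r = 0.99), the arginine transporter Slc7a2 (0.99), the kinase Mknk2 (0.99) and the lipoprotein lipase inhibitor Angptl4 (0.98) completed the 5 most alike. Of the 20 other genes of glycerolipid synthesis measured, 12 were higher and 8 lower in livers numbered 3 (median 0.02), and 0 passed. After Lpin1 the largest differences in size were those of Agpat1 (1.33, SE 1.56), which rested on WT liver 2 at -5.86, and Agpat2 (0.92, SE 0.19).

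Gpcpd1 was at 2.73, 3.31 and 0.01 in HMGB2-KO livers 1 to 3, against 2.12, 2.93 and 0.64 in WT livers 1 to 3. Livers numbered 3 averaged 0.32, against 2.77 in livers numbered 1 and 2, a difference of -2.45 or 5.47-fold lower. By genotype the difference was -3.01 among HMGB2-KO and -1.89 among WT livers. HMGB2-KO minus WT was 0.61 and 0.38 for livers numbered 1 and 2 and -0.63 for livers numbered 3. The genes most like it were the fatty acid hydroxylase Cyp4a32 (r = 0.99), the clock repressor Nr1d2 (0.99), the fatty acid sensor Ppara (0.99), Cpt1a (0.99), which admits fatty acids to mitochondria, and the clock output factor Dbp (0.99).

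In the choline pathway around Gpcpd1, 23 of 30 other genes were higher in livers numbered 3, with a median of 0.11. None passed the adjusted threshold. The choline kinase Chka, which uses the choline that Gpcpd1 releases, was at -1.55, -2.23 and 0.05 in HMGB2-KO livers 1 to 3, against -1.15, -2.10 and 0.04 in WT livers 1 to 3. Both livers numbered 3 thus lay above the other 4, opposite in side to Gpcpd1, by 1.80 (SE 0.31, adjusted p = 0.145). The choline transporter Slc44a1 differed by 0.67 (SE 0.17) and the methyltransferase Bhmt2 by 0.63 (SE 0.12). Gde1, a related phosphodiesterase looked up after other values were seen, differed by -0.06.

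Tubb2a ran opposite to these 3 genes. It read -1.74, -2.96 and -0.31 in HMGB2-KO livers 1 to 3, against -1.70, -3.43 and -0.35 in WT livers 1 to 3. Both livers numbered 3 were the highest and both numbered 2 the lowest. Livers numbered 3 averaged -0.33, against -2.46 in livers numbered 1 and 2, which is 2.13 log2 units or 4.37-fold higher, with 2.04 among HMGB2-KO and 2.22 among WT livers. Same-number livers of the 2 genotypes differed by -0.04, 0.47 and 0.04 for numbers 1, 2 and 3.

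Its most alike genes were the mitochondrial unfoldase Clpx (r = 0.98), Lonrf3 (0.97), Paqr9 (0.97), Chka (0.97) and the ubiquitin ligase Lnx2 (0.97). Of 25 other genes of tubulins and tubulin folding, 19 were higher in livers numbered 3, with a median of 0.22, and 10 had no overlap with the other livers, all of them higher, where 10.4% of all genes do so. None passed the adjusted threshold. The alpha-tubulins Tuba1c (0.98, SE 0.21), Tuba1a (0.90, SE 0.47) and Tuba4a (0.80, SE 0.20) differed most. Tubb2b, a near-identical copy of Tubb2a whose probes may share signal with it, was looked up after other values were seen and differed by 0.24. Tubb4b and Tubb5, looked up likewise, differed by 0.58 and 0.41.

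By count, 3 of the 6 genes were lower in both livers numbered 3 than in any other liver and 1 was higher, where 9.32% and 10.4% of all genes do so. The genes were chosen on this spread, so nothing is read from those counts. Liver number, animal number and anything else that sets animals 31 and 32 apart cannot be told apart.

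Csad did not follow the liver number. It was at -0.06, 3.04 and 1.07 in HMGB2-KO livers 1 to 3, against 2.19, -0.16 and 2.65 in WT livers 1 to 3. HMGB2-KO liver 1 and WT liver 2, the 2 highest for Rgs16, were the 2 lowest, and the other livers lay from 1.07 to 3.04. The same-number differences of HMGB2-KO minus WT were -2.25, 3.20 and -1.58 for numbers 1, 2 and 3. Livers numbered 3 averaged 1.86 and livers numbered 1 and 2 averaged 1.25, a difference of 0.61 that was -0.42 among HMGB2-KO and 1.64 among WT livers and that became -0.18 without WT replicate 3.

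The genes most like Csad included 2 enzymes of bile acid synthesis. These were Cyp7a1, which catalyses its first and rate-limiting step (r = 0.87), and Cyp8b1, the sterol 12-alpha-hydroxylase (0.85). Cyp7a1 was at -1.74, 0.31 and 0.00 in HMGB2-KO livers 1 to 3, against -0.48, -1.34 and 0.94 in WT livers 1 to 3, so its 2 lowest livers were those of Csad. Cyp8b1 read 1.72, 2.47 and 1.47 in HMGB2-KO livers 1 to 3, against 1.75, 1.13 and 2.47 in WT livers 1 to 3, and its highest livers, HMGB2-KO 2 and WT 3, were the 2 highest for Csad as well. The hepatokine gene Inhbe (0.87), the glutathione transferase Gsta2 (0.84) and the UDP-glucose dehydrogenase Ugdh (0.83) completed the 5. The likeness was lower than for the other genes, whose 5 nearest all had r of 0.95 or more. These 5 are the highest of 812 genes ranked over only 6 livers, with no test. No link of Csad to bile acid synthesis is read from them.

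Neighbours of Csad in taurine synthesis varied less, but Csad was chosen for its spread. Cdo1, which makes its substrate, was looked up after other values were seen and ranged only from 0.29 to 0.48 in HMGB2-KO livers and from 0.33 to 0.51 in WT livers. Fmo1, looked up likewise, which oxidises hypotaurine to taurine, ranged from 0.06 to 0.32 in HMGB2-KO livers and from -0.39 to 0.22 in WT livers. Of 19 other genes of taurine and sulfur amino acid metabolism, 14 were higher and 5 lower in livers numbered 3 (median 0.13), and 0 passed. The aminotransferase Got1 (-1.16, SE 0.14, adjusted p = 0.0830), Ethe1 (0.58, SE 0.14) and Mat1a (-0.58, SE 0.15) had the largest differences in size.

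Ip6k2 was at 1.24, 0.72 and -0.10 in HMGB2-KO livers 1 to 3, against 0.42, -2.91 and -1.00 in WT livers 1 to 3. The spread came mainly from WT liver 2, which lay 1.91 log2 units below the next liver. HMGB2-KO was higher than WT at each number, by 0.82, 3.64 and 0.90 for numbers 1, 2 and 3, although HMGB2-KO liver 3 lay below WT liver 1 and the genotypes overlapped. The log2 fold change was 1.79 (SE 0.76, 95% confidence interval 0.01 to 3.56), with an unadjusted p of 0.0491 and an adjusted p of 0.994 in limma, so Ip6k2 did not pass. An unadjusted p under 0.05 was found for 3.68% of all genes. Leaving out WT replicate 2, the array that stood apart, gave a log2 fold change of 0.91, with Ip6k2 still higher in HMGB2-KO.

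All 5 genes most like Ip6k2 had their lowest value on the array of WT replicate 2 too. They were Cpeb2 (r = 0.97, at -2.28 there), Lgals4 (0.96, -2.04), Npdc1 (0.96, -1.60), Gpr135 (0.96, -1.61) and Mfap2 (0.95, -1.67). Relatives of Ip6k2 varied less, but Ip6k2 was chosen for its spread. Ip6k1 and Ip6k3, the other kinases of its family, were looked up after other values were seen and ranged from 0.04 to 0.22 in HMGB2-KO livers and from -0.02 to 0.12 in WT livers. Among 19 other genes of inositol phosphate metabolism, 9 were higher and 10 lower in livers numbered 3 (median -0.02) and 11 were higher and 8 lower in HMGB2-KO (median 0.02), with 0 past either threshold. Miox, which breaks down inositol, had the smallest genotype p of them (-0.50, SE 0.22, adjusted p = 0.994 in limma).

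**Figure D2:**
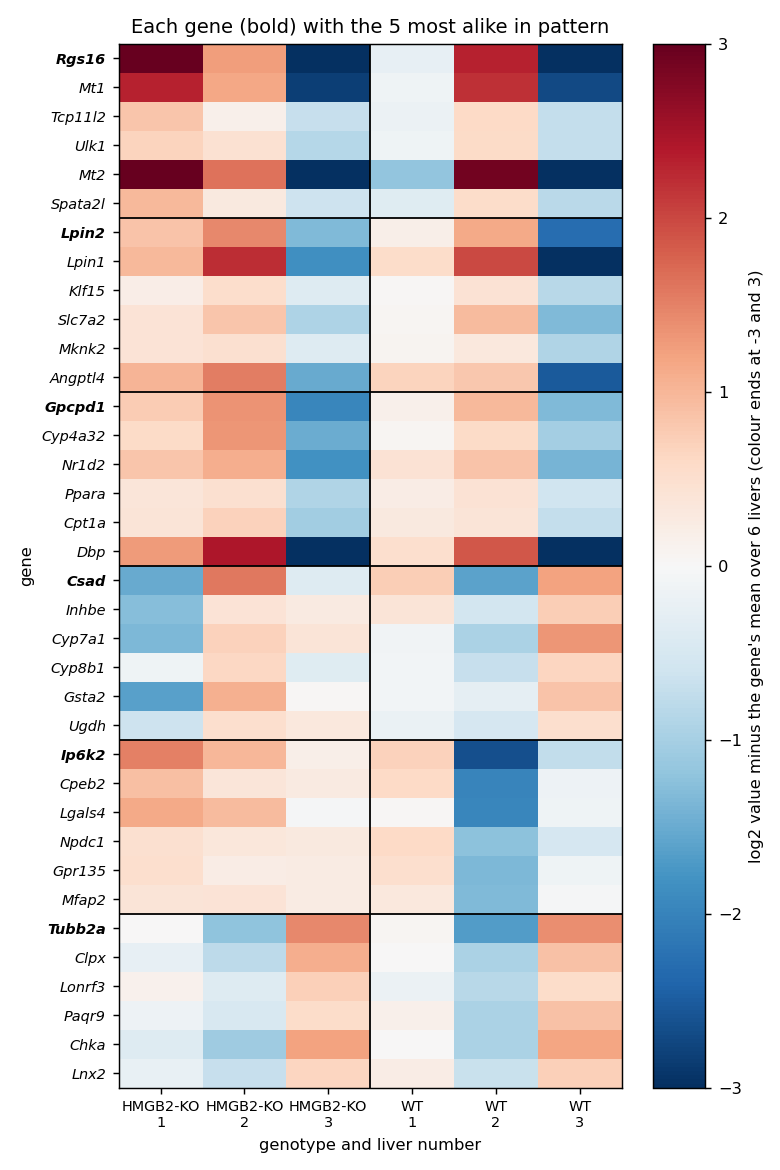
Heat map of the 6 genes (bold) and, under each, the 5 genes most like it in pattern, as log2 value minus the gene's mean over the 6 livers (HMGB2-KO columns left, WT right; red higher, blue lower). The upper 3 blocks turn blue in both livers numbered 3, the Tubb2a block turns red there, and the Ip6k2 block is blue in WT liver 2. The Csad block is mostly blue in HMGB2-KO liver 1 and WT liver 2, but Cyp8b1 is lower in HMGB2-KO liver 3 than in HMGB2-KO liver 1.

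Between genotypes, none of the 6 genes passed the adjusted threshold, and neither did any of the 19505 genes (0% called by limma; smallest adjusted p 0.350, with 717 genes at an unadjusted p under 0.05). Hmgb2, the gene knocked out, did not pass either (log2 fold change -0.89, adjusted p = 0.645 in limma). Not passing here therefore does not show that a gene is unchanged. The selection favoured genes with a large spread between livers, which also widens the error of the genotype comparison. Rgs16 averaged 3.93 ± 3.48 in HMGB2-KO and 2.96 ± 2.90 in WT livers (SD, n = 3 each). Its log2 fold change was 0.97 (95% confidence interval -3.45 to 5.39, adjusted p = 0.997 in limma). Lpin2 averaged 1.68 ± 1.46 and Gpcpd1 2.02 ± 1.76 in HMGB2-KO livers, against 1.05 ± 1.77 and 1.89 ± 1.16 in WT livers, with log2 fold changes of 0.64 (-1.61 to 2.88) and 0.12 (-1.95 to 2.20). For Csad the values were 1.35 ± 1.57 in HMGB2-KO and 1.56 ± 1.51 in WT livers, a log2 fold change of -0.21 (-2.35 to 1.93). Tubb2a was at -1.67 ± 1.33 in HMGB2-KO and -1.83 ± 1.55 in WT livers, a log2 fold change of 0.16 (-1.84 to 2.16). In exact two-sided permutation tests over the livers, p lay between 0.2 for Ip6k2 and 1.0 for Gpcpd1 and Csad, and 0.1 is the smallest that 3 against 3 livers allow. The genotypes overlapped for all 6 genes. Of all genes, only 4.32% were higher and 5.35% lower in every HMGB2-KO liver than in any WT liver. With shares this low, and genes chosen for their spread, nothing is read from that overlap.

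**Figure D3:**
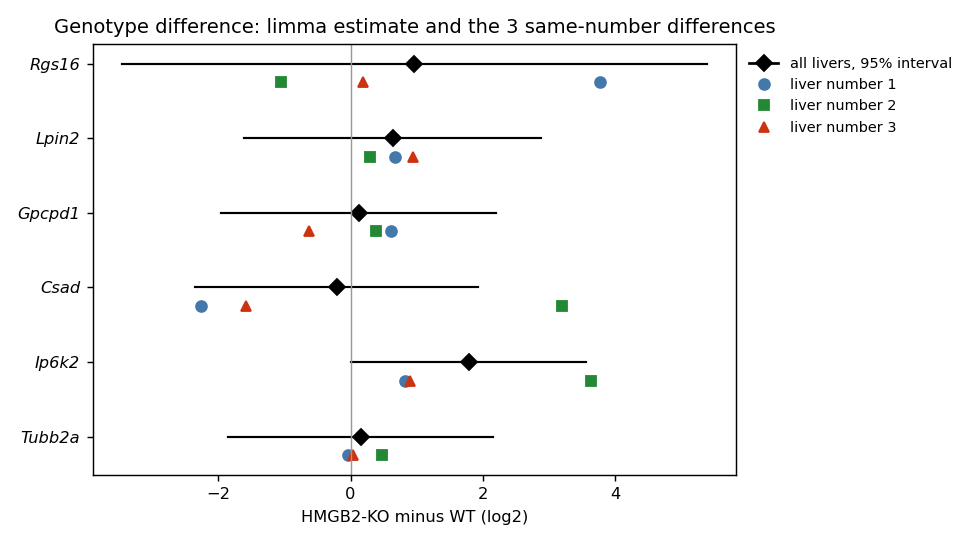
HMGB2-KO minus WT (x axis, log2) for each gene, with the limma estimate and its 95% confidence interval (black) and the difference between livers of the same number, which are not pairs (coloured symbols). The interval crosses 0 for 5 genes, and for Ip6k2 it starts at 0.01 with livers numbered 2 far to the right of the other numbers.

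**Figure D4:**
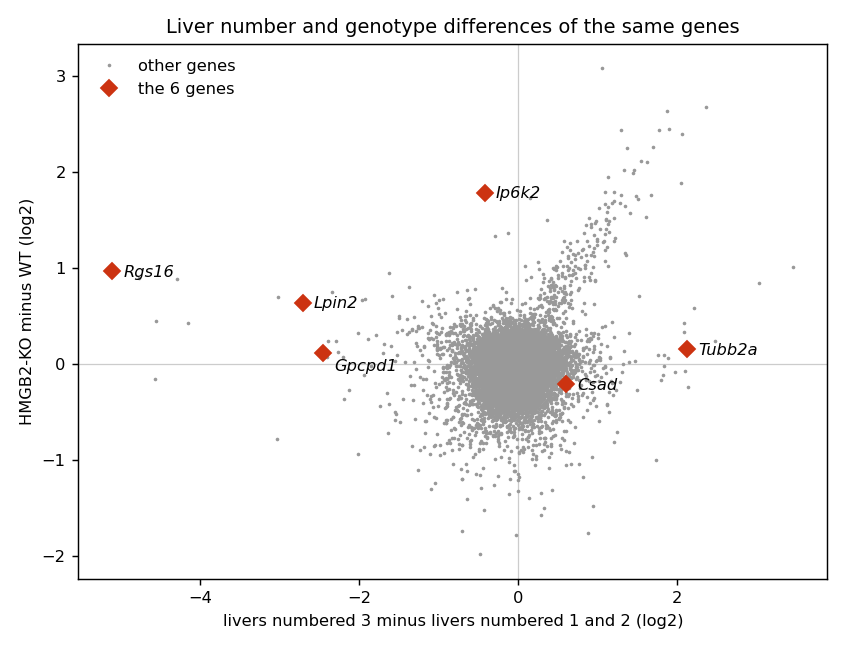
All 19505 genes by difference of livers numbered 3 from livers numbered 1 and 2 (x axis, log2) and by HMGB2-KO minus WT (y axis, log2), with the 6 genes as red diamonds. Rgs16 lies farthest to the left at -5.10, Tubb2a lies to the right at 2.13, and Ip6k2 is the highest of the 6 genes on the y axis at 1.79, with other genes above it.

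Some genes of the daily clock and of fasting differed between the same livers as Rgs16, Lpin2 and Gpcpd1. Their lists, like those above, were made with earlier results of these data known. The counts, shares and adjusted p of all these lists are therefore a description, and no enrichment is read from them. Among 198 measured genes of all the related lists, 4 passed the adjusted threshold between liver numbers, or 2.02%. Of all genes, 0.0154% passed as higher and 0.0256% as lower in livers numbered 3. These 4 were the clock repressors Nr1d1 (-4.56, SE 0.14, adjusted p = 0.000271) and Nr1d2 (-2.41, SE 0.22, adjusted p = 0.0384), Angptl4 (-3.02, SE 0.19, adjusted p = 0.00775), all lower in livers numbered 3, and the clock activator Npas2, which was higher (1.82, adjusted p = 0.0109). Leaving out HMGB2-KO replicate 1 gave a count of 2, HMGB2-KO replicate 3 or WT replicate 3 a count of 1, and WT replicate 1 a count of 7.

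Nr1d1 stood at 2.88, 2.91 and -1.52 in HMGB2-KO livers 1 to 3, against 3.27, 3.03 and -1.57 in WT livers 1 to 3, a step between liver numbers with little spread on either side. Dbp, at 4.42, 5.55 and 0.11 in HMGB2-KO livers 1 to 3 and 3.64, 4.99 and 0.09 in WT livers 1 to 3, had a similar step (-4.55, SE 0.45, adjusted p = 0.0555). Of 20 clock genes 14 were lower and 6 higher in livers numbered 3 (median -0.34). Without overlap, 8 were lower and 5 higher, where 9.32% and 10.4% of all genes are. Of 19 fasting-induced genes 16 were lower (median -0.73), 11 of them without overlap where 9.32% of all genes are, with Cyp4a14 (-3.03, SE 0.40) and Igfbp1 (-1.97, SE 0.49) beside Angptl4. Of 16 feeding-induced genes 7 were higher and 9 lower (median -0.02), Txnip being at -2.34 (SE 0.30), Fasn at 1.21 (SE 0.43) and Elovl6 at -0.99 (SE 0.19). Of 14 glucocorticoid-induced genes 12 were lower (median -0.70), led by Mt2 (-4.77, SE 1.07), Lpin1 and Mt1 (-4.15, SE 0.64). The part of these programmes in the values of Rgs16, Lpin2 and Gpcpd1 was not tested.

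**Figure D5:**
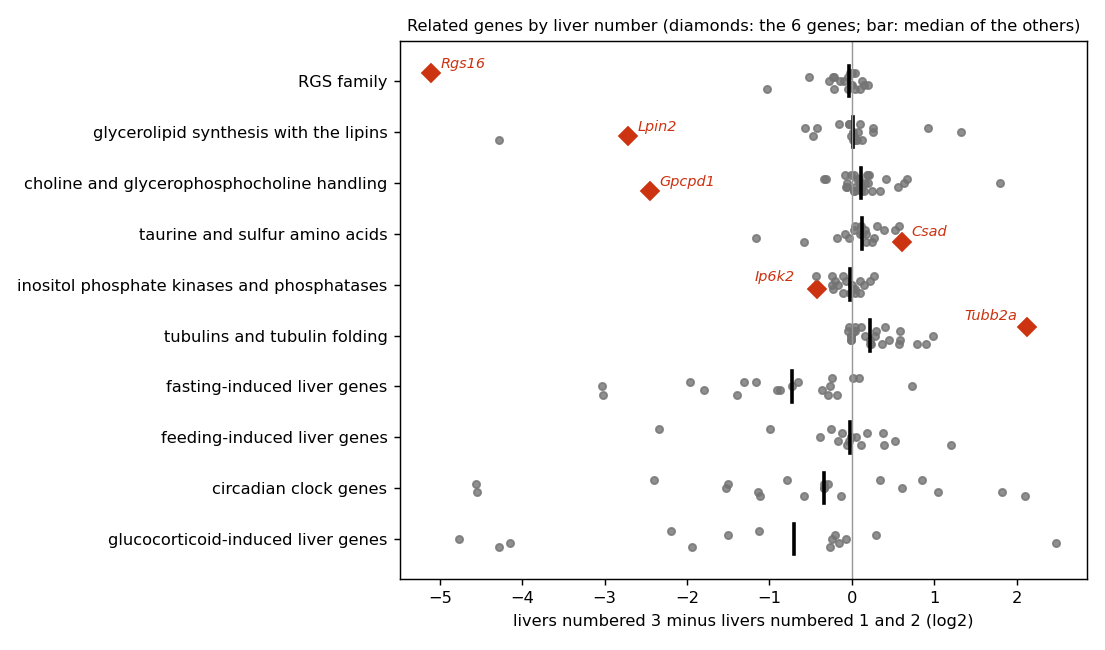
Difference of livers numbered 3 from livers numbered 1 and 2 (x axis, log2) for every measured gene of the related lists (grey points, bar at the median of the genes other than the 6) and for the 6 genes (red diamonds). Rgs16, Lpin2 and Gpcpd1 lie far left of their own families, apart from Lpin1 at -4.29, and Tubb2a lies right of the other tubulins. The 6 genes were chosen for their spread between livers, so their place beside their families is only a description.

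By genotype the related lists showed no gene past the adjusted threshold. Closest to it among RGS genes came Rgs6 (-0.43, SE 0.13) and Rgs13 (-0.62, SE 0.20), both at an adjusted p of 0.994 in limma. Irs2, the insulin receptor substrate of the fasting list, was at 0.46 (SE 0.16), with the same adjusted p. Median log2 fold changes of HMGB2-KO against WT were 0.25 for the fasting-induced list (14 of 19 genes higher), 0.13 for the feeding-induced list (12 of 16), 0.12 for the clock list (14 of 20) and 0.37 for the glucocorticoid-induced list (12 of 14), against -0.00 over all genes. Counts by sign depend on the centring of the arrays. In the values as deposited the median of all genes was -0.12, and these counts were not repeated there.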

How the data were processed

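Liver RNA of 3 HMGB2-KO and 3 WT mice was labelled in duplicate, per the labels' protocols, and 1 column of values per liver was used. The deposited table holds 22206 rows of values taken as log2, from -8.60 to 6.93. Their log base, normalization and row baseline are not given in the sources read. Column medians as deposited were -0.04, -0.05 and -0.05 for HMGB2-KO and 0.01, 0.26 and -0.04 for WT replicates 1 to 3. The platform annotation gives 19572 rows 1 gene symbol, 0 rows several and 2634 rows none, and all 19572 match RefSeq's gene table of GRCm38.p6. Each array's median was subtracted, and 55 genes with more than 1 row kept the one of highest mean. Tests used limma 3.58.1 in R 4.3.3 (lmFit, eBayes, two-sided, Benjamini-Hochberg over 19505 genes, threshold 0.05), with genotype alone or with a term for livers numbered 3, and were tested on simulated data. The number of arrays limits the precision. The 6 genes and all lists were chosen with earlier results of these data known. Besides them, the rule allowed naming the 5 genes most alike to each by Pearson r, without predicted genes and olfactory or vomeronasal receptors, and from each list 3 genes by size of the liver number difference and 3 by genotype p. Alternatives were the values as deposited, quantile normalization, the mean of rows, each liver left out, a replicate block, an animal term, array weights, and trend with robust moderation.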

Additional observations from a re-analysis of the deposited data

How the results depend on the processing

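No genotype result of the 6 genes passed under any of the 13 alternatives, with adjusted p from 0.863 upward, and 0 genes of the array passed under each. With 1 liver left out, the log2 fold change of HMGB2-KO against WT ranged from -0.55 to 2.86 for Rgs16, -0.35 to 1.46 for Lpin2, -0.53 to 1.13 for Gpcpd1, -1.07 to 0.50 for Csad, 0.91 to 2.58 for Ip6k2 and -0.65 to 0.90 for Tubb2a. The sign turned without HMGB2-KO replicate 1 for Rgs16 (-0.55), Gpcpd1 (-0.23) and Csad (0.50), and without HMGB2-KO replicate 2 for Gpcpd1 (-0.53). It turned without HMGB2-KO replicate 3 for Tubb2a (-0.52), without WT replicate 1 for Csad (0.10) and without WT replicate 2 for Tubb2a (-0.65). Without WT replicate 3 it turned for Rgs16 (-0.54), Lpin2 (-0.35), Gpcpd1 (-0.51) and Csad (0.34). Quantile normalization put Gpcpd1 at -0.084 and Tubb2a at -0.71, and array weights put Tubb2a at -0.089; the cause was not tested. The values as deposited put the median of all genes at -0.12 for genotype. Differences between liver numbers stayed between -5.76 and -3.97 for Rgs16, -3.19 and -2.24 for Lpin2, -2.77 and -2.05 for Gpcpd1 and 1.80 and 2.38 for Tubb2a over 9 alternatives, whereas those of Csad (-0.18 to 1.40) and Ip6k2 (-1.34 to 0.04) changed sign. The count of related genes past the threshold between liver numbers was 4, or 2 with the values as deposited, 8 with quantile normalization and 1 to 7 with 1 liver left out. Deviations of same-numbered livers correlated at 0.04, 0.13 and 0.29; since 1 was not above 0.1 and the labels name no shared litter or day, the numbers were not taken to pair animals. By the same deviations, 5 of 6 livers correlated best with their own number. The deviations were taken from each genotype's own mean, so these 6 matches are not independent of each other. The step of livers numbered 3, found in both genotypes, enters them too, so the count is not separate evidence of pairing. Same-numbered livers also have consecutive animal numbers, for which the labels give no reason, so pairing is not settled. The replicate block left every fold change as it was, at 0.97 for Rgs16 (adjusted p = 0.933), 0.64 for Lpin2 (0.922), 0.12 for Gpcpd1 (0.967), -0.21 for Csad (0.989), 1.79 for Ip6k2 (0.922) and 0.16 for Tubb2a (0.933), with 0 genes past the threshold.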
